A study of Mus musculus with 12 samples.

Results

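The liver transcriptomes of vehicle-treated mice with and without the glucocorticoid receptor (GR) in skeletal muscle were compared. The comparison used 2 of the 12 libraries of the study, the vehicle-treated GRmKO liver and the vehicle-treated GRf/f liver, which were chosen by their labels. Of the 22252 genes listed for liver, 12485 were above 0 in all 4 liver libraries and were compared. The other 10 libraries, which were vehicle- or corticosterone-treated (CORT) liver, gastrocnemius and gonadal white adipose tissue (gWAT) of the same genotypes, are given only beside results of this pair.

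All mice were males on the C57BL/6J background. GRf/f mice carried *Nr3c1*, the GR gene, with exon 3 flanked by loxP sites. GRmKO mice carried the same floxed gene and *Acta1*-Cre, which is driven by the skeletal actin promoter and acts in myofibers. Every mouse drank water with 1% ethanol from 8 weeks of age for 4 weeks, alone (vehicle) or, in the CORT groups, with corticosterone at 100 µg/mL, and was kept in a cage of its own with free access to pellets. RNA of 3 mice was pooled into 1 library per group, so the pair below is 1 library against 1, no test of the genotypes was possible, and the spread between mice was not measured. Whether the mice had eaten before the livers were taken, and at what hour, was not given in the sources used here. *Acta1*-Cre is named for GRmKO mice only, so the presence of the transgene and the loss of muscle GR cannot be told apart.

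The liver libraries held 20471247 to 20940660 counts each. Levels are given as counts-per-million (CPM) of the library total, with 95% Wilson binomial intervals in parentheses for the genes the results turn on. A difference is the log2 of GRmKO over GRf/f with 0.5 CPM added to each of the levels, followed in parentheses by an exact (Clopper-Pearson) 95% interval of the ratio without that addition. Both intervals cover counting error only, and the floor of 3 counts was 0.143 to 0.147 CPM in these libraries. With no replicates, a gene is called higher or lower below where it passed 1.5-fold, which is 0.58 on the log2 scale. The 6 measured hepatocyte markers were abundant in both libraries and summed to 58710 CPM in GRf/f and 81760 CPM in GRmKO mice. Most of this difference was albumin (*Alb*), at 49853 and 71267 CPM. *Nr3c1* itself, which is not deleted in hepatocytes, stood at 58.0 CPM (54.8 to 61.4) in GRf/f and 60.8 CPM (57.6 to 64.3) in GRmKO liver, against 113 CPM and 46.4 CPM in the corresponding gastrocnemius libraries. Reads from outside exon 3 are counted whether or not the exon is present, so these levels do not measure functional receptor.

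After a meal, insulin drives the liver to take up glucose, store it as glycogen and turn the surplus into fatty acids, through the transcription factors SREBP-1c and ChREBP. During fasting, insulin falls, FOXO1 and CREB switch on gluconeogenesis genes and *Igfbp1* and *Irs2*, and PPAR-alpha switches on fatty acid oxidation and ketone body production. Cholesterol synthesis is governed by SREBP-2, which acts when sterols in the endoplasmic reticulum are low.

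Across all tested genes, 722 (5.78%) were higher and 516 (4.13%) were lower in GRmKO liver. Among the 7888 genes with a mean of at least 5 CPM in the 4 liver libraries, in which counting noise is small, 296 (3.75%) were higher and 215 (2.73%) were lower, with a median difference of 0.03, and 54.8% lay above 0. The counts of gene lists below are to be read against these shares. Each deposited value is listed under 1 transcript of its gene, and whether reads of the other transcripts were added to it was not settled. Of these 7888 genes those with 2 or more annotated coding transcripts passed 1.5-fold in 6.99% of cases against 4.71% of the 1764 genes with 1 coding transcript. Among those 1764 genes, 56 (3.17%) were higher and 27 (1.53%) were lower.

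**Figure D1:**
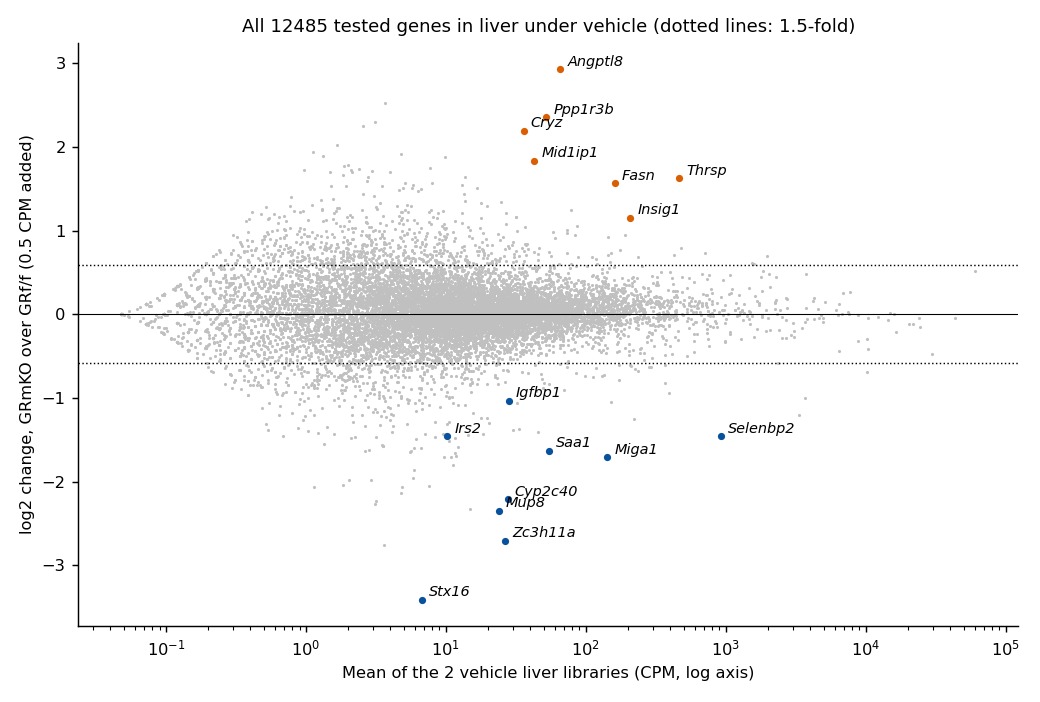
Each point is 1 of the 12485 tested genes, with the mean of the 2 vehicle liver libraries (CPM, log axis) across and the log2 difference, GRmKO over GRf/f, upwards. Some of the genes named in the text are coloured and labelled, orange above 0 and blue below, and most abundant genes lie between the dotted lines of 1.5-fold, with *Angptl8* at the top and *Stx16* at the bottom.

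Genes of fatty acid and triglyceride synthesis lay above 0 in GRmKO against GRf/f liver, all 21 tested members when scaled by library total and 20 with TMM or median-of-ratios scaling. They ranged from 0.02 to 2.93 with a median of 0.35, and 6 were higher and 0 lower. *Angptl8*, a secreted liver factor induced by feeding that restrains lipoprotein lipase in other tissues (chromosome 9, 21835510 to 21837347), stood at 14.9 CPM (13.3 to 16.6) in GRf/f and 117 CPM (112 to 121) in GRmKO liver, a difference of 2.93 (2.80 to 3.14), the largest above 0 among genes with a mean of at least 5 CPM in both vehicle libraries together. *Mid1ip1*, which binds acetyl-CoA carboxylase and promotes its polymerisation (chromosome X, 10715013 to 10719690), stood at 18.4 CPM (16.6 to 20.3) and 66.8 CPM (63.4 to 70.4), a difference of 1.84 (1.70 to 2.03). Its partner *Thrsp*, also called Spot 14 (chromosome 7, 97412938 to 97417730), stood at 226 CPM (219 to 232) and 697 CPM (686 to 709), a difference of 1.62 (1.58 to 1.67). *Fasn*, the fatty acid synthase (chromosome 11, 120805846 to 120824547), stood at 81.2 CPM (77.4 to 85.1) and 241 CPM (234 to 247.7), a difference of 1.56 (1.49 to 1.65).

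The other members of this list past 1.5-fold, named after their values were seen, were *Acly*, which makes cytosolic acetyl-CoA, at 49.3 and 97.1 CPM (0.97), and *Elovl6*, which elongates palmitate, at 67.4 and 108.7 CPM (0.69). Other members differed less. *Acaca*, the acetyl-CoA carboxylase of fatty acid synthesis, stood at 53.0 and 73.2 CPM (0.46), *Srebf1*, the gene of SREBP-1c, at 107.0 and 155 CPM (0.53), and *Scd1*, the stearoyl-CoA desaturase, at 6233 and 7410 CPM (0.25), all under 1.5-fold.

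Genes of glucose use and glycogen lay mostly above 0 as well. Of 17 tested members, 3 were higher and 0 lower, 15 lay above 0 (14 with either other scaling) and the median was 0.32. *Ppp1r3b*, which tethers protein phosphatase 1 to glycogen and thereby promotes glycogen synthesis (chromosome 8, 35375739 to 35388139), stood at 16.6 CPM (15.0 to 18.5) in GRf/f and 87.0 CPM (83.1 to 91.1) in GRmKO liver, a difference of 2.35 (2.22 to 2.56). *Pfkfb1*, which sets the level of the glycolysis activator fructose 2,6-bisphosphate, stood at 19.8 and 32.4 CPM (0.70). The ChREBP target *Pklr*, the liver pyruvate kinase, was at 0.55, under 1.5-fold.

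*Angptl8* was at 82.7 CPM in CORT-treated GRf/f and 107 CPM in CORT-treated GRmKO liver, *Ppp1r3b* at 152 and 103.5 CPM, *Mid1ip1* at 86.8 and 71.6 CPM, *Fasn* at 253 and 202 CPM, and *Thrsp* at 736 and 360 CPM. For each of these genes the vehicle-treated GRf/f library was the lowest of the 4. Among genes above 0, the only ones that can have this order, the same library was the lowest of the 4 for 13 of 21 members of the fatty acid list (61.9%) and for all 15 of the glucose list, beside 55.4% of the 4324 genes above 0 with a mean of at least 5 CPM. The share of the fatty acid list was close to that background. That 1 pool is on one side of every vehicle difference in liver.

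**Figure D2:**
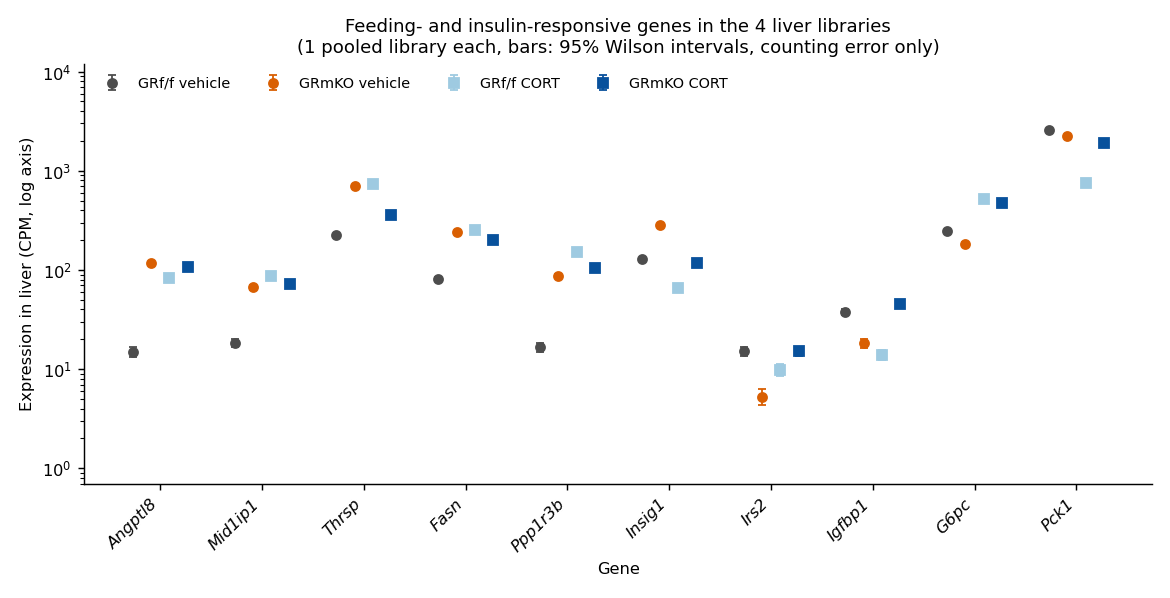
The level of 10 genes of the feeding response is drawn for the 4 liver libraries (CPM, log axis), grey and orange circles for vehicle-treated GRf/f and GRmKO mice and pale and dark blue squares for the CORT-treated ones, with bars for 95% Wilson intervals. From *Angptl8* to *Ppp1r3b* the vehicle-treated GRf/f circle is the lowest of the 4, and for *Irs2* the vehicle-treated GRmKO circle is the lowest.

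The genes *Irs2* and *Igfbp1*, which insulin represses through FOXO1 and fasting induces, were lower in GRmKO liver. Of 17 tested members of a list of insulin receptor, FOXO and CREB responsive regulators, 0 were higher and 2 lower, and the median was 0.04. *Irs2*, the insulin receptor substrate of fasted hepatocytes (chromosome 8, 10984681 to 11008458), stood at 15.2 CPM (13.6 to 16.9) in GRf/f and 5.20 CPM (4.3 to 6.3) in GRmKO liver, a difference of -1.46 (-1.86 to -1.22). *Igfbp1*, a secreted binder of insulin-like growth factors (chromosome 11, 7197782 to 7202546), stood at 37.8 CPM (35.3 to 40.5) and 18.2 CPM (16.5 to 20.2), a difference of -1.04 (-1.23 to -0.88). Under CORT the order of the genotypes was the opposite for both. *Irs2* was at 9.85 CPM in GRf/f and 15.1 CPM in GRmKO liver, and *Igfbp1* at 13.9 and 45.9 CPM.

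Gluconeogenesis genes were mostly within 1.5-fold. Of 13 tested members, 0 were higher and 1 lower, with a median of 0.08. *G6pc*, the catalytic subunit of glucose-6-phosphatase, stood at 247 CPM in GRf/f and 184 CPM in GRmKO liver, a difference of -0.42 (-0.48 to -0.36). *Pck1*, the cytosolic phosphoenolpyruvate carboxykinase, stood at 2563 and 2250.3 CPM, a difference of -0.19 (-0.21 to -0.17), and *Tat*, the tyrosine aminotransferase induced by glucocorticoids and glucagon, at 2140 and 2373 CPM, a difference of 0.15 (0.13 to 0.17). The counting intervals of all 3 exclude 0, but they hold no spread between pools. The member past 1.5-fold was *Slc25a25*, a mitochondrial carrier of ATP-Mg and phosphate, at 88.7 and 57.0 CPM, a difference of -0.63 (-0.74 to -0.53).

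The 300-base RefSeq promoters (GRCm38.p6, 250 bases before to 50 after the annotated start, printed on the gene's strand) are shown for 5 genes on which these results turn, 3 that were higher and 2 that were lower. Capitals mark a match, on either strand, to 1 of 4 motifs, the SREBP motif TCACNCCAC, the E-box CACGTG, the FOXO motif TGTTTAC and the insulin response element CAAAACA. No pair of the 4 motifs overlaps in these sequences.
Angptl8, chr9:21835260-21835559, plus strand: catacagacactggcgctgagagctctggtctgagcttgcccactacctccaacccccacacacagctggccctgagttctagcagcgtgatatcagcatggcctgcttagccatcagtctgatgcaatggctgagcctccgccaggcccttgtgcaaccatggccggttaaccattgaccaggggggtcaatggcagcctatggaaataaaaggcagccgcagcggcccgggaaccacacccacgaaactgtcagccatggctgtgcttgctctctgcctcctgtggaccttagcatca
Thrsp, chr7:97417501-97417800, minus strand: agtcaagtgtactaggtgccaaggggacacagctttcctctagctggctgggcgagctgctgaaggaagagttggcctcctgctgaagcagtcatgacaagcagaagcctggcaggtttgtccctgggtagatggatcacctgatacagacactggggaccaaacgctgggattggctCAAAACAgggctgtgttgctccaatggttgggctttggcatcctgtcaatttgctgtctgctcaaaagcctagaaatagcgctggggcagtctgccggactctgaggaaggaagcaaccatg
Insig1, chr5:28071162-28071461, plus strand: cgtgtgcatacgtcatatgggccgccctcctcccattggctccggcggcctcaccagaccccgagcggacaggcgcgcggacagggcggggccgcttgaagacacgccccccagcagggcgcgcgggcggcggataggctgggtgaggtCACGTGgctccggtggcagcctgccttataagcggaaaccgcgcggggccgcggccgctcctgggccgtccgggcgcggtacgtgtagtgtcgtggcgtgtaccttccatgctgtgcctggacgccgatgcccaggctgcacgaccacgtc
Irs2, chr8:11008880-11009179, minus strand: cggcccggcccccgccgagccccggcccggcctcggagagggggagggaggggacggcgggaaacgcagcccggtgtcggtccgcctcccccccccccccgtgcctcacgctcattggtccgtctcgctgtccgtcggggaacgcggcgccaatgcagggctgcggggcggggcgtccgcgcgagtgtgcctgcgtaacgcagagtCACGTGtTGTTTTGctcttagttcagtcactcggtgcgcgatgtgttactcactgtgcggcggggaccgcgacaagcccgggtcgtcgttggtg
Igfbp1, chr11:7197537-7197836, plus strand: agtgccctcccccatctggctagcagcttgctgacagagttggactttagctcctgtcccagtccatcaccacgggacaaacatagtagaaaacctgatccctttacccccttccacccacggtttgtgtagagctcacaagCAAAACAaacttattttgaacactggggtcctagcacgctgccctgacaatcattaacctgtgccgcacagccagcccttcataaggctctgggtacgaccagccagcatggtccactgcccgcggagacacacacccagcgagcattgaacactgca

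*Angptl8* held none of the 4 motifs in this window, and *Thrsp* held an insulin response element at position -72. The promoters of *Fasn*, *Mid1ip1* and *Acly*, which were higher too, were also searched. They held none of the 4 motifs and are not shown. That of *Acly* lay at a start 4402 bases from that of its retained transcript. *Insig1* held an E-box at -101. *Irs2* held an E-box at -44 and an insulin response element on the other strand at -37, and *Igfbp1* an insulin response element at -108. Of all 32851 promoters in the table, 1.24% held the SREBP motif, 7.15% the E-box, 3.65% the FOXO motif and 6.28% the insulin response element. The insulin response element was in 3 of the 12 promoters listed for the FOXO and CREB list (25%) and in 1 of the 17 listed for the fatty acid list (5.88%). TGTTTAC, the only form searched under the name of FOXO motif, was in 0 of the former 12 and 1 of the latter 17. The E-box was in 4 (33.3%) and 2 (11.8%) of them, and the SREBP motif in 0 and 1. The annotated start lay 471 bases from that of the retained *Irs2* transcript, 180 from that of *Thrsp*, 49 from that of *Insig1* and 5 from that of *Igfbp1*, and at that of *Angptl8*. A match of letters is not a bound site, a missing match is not a missing site, and no binding was measured.

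Genes of cholesterol synthesis and uptake lay mostly above 0 too. Of 26 tested members, 5 were higher and 0 lower, 24 lay above 0 (22 with either other scaling) and the median was 0.21. *Insig1*, which holds SREBPs in the endoplasmic reticulum and is itself an SREBP target (chromosome 5, 28071363 to 28078662), stood at 128 CPM (123 to 133) and 285 CPM (278 to 292), a difference of 1.15 (1.09 to 1.22). *Mvd*, an enzyme of the mevalonate pathway, stood at 2.34 and 4.84 CPM (0.91), and *Hmgcs1*, the cytosolic HMG-CoA synthase of that pathway, at 25.2 and 44.2 CPM (0.80). *Pmvk* of the same pathway, named after its value was seen, stood at 8.98 and 15.2 CPM (0.73).

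For 17 of the 24 members above 0 (70.8%) the vehicle-treated GRmKO library was the highest of the 4, beside 37.4% of all genes above 0 with a mean of at least 5 CPM, and for 4 (16.7%) the vehicle-treated GRf/f library was the lowest. Under CORT, where no library is shared with the vehicle comparison, 16 of the 26 members were higher in GRmKO and 0 lower, with a median of 0.75. *Insig1* was then at 65.4 CPM in GRf/f and 117 CPM in GRmKO liver.

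**Figure D3:**
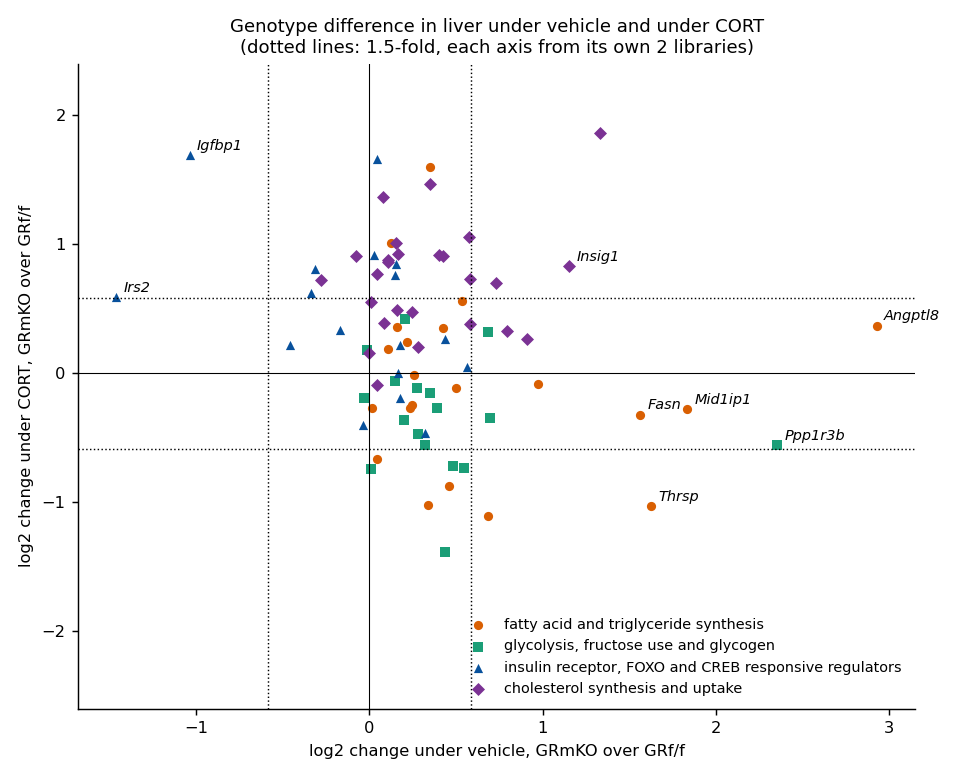
Each point is a member of 1 of 4 lists, with its log2 difference between genotypes under vehicle across and under CORT upwards, each from its own 2 libraries, and dotted lines at 1.5-fold. Cholesterol genes (diamonds) lie mostly above 0 on both axes, fatty acid and glucose genes (circles and squares) to the right and mostly below 0, and *Irs2* and *Igfbp1* at the upper left.

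Under CORT, which was a comparison of another pair of libraries, 505 of the 7888 genes of at least 5 CPM (6.4%) were higher and 408 (5.17%) lower in GRmKO liver, with a median of 0.07. Of the fatty acid list, 2 members were higher and 5 lower, with a median of -0.11. Of the glucose list, 0 were higher and 4 lower, with a median of -0.35. Of the FOXO and CREB list, 8 were higher and 0 lower, with a median of 0.34. Over all genes of at least 5 CPM, 37 of the 296 that were higher under vehicle were also higher under CORT (12.5% of the first list and 7.33% of the second) and 58 were lower (19.6% and 14.2%). Of the 215 that were lower under vehicle, 31 were also lower under CORT (14.4% and 7.6%) and 33 were higher (15.3% and 6.53%). Whether a difference changed with CORT could not be tested with 1 library a group.

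In the other tissues of vehicle-treated mice, GRmKO over GRf/f, the fatty acid list had a median of 0.19 in gastrocnemius and -0.24 in gWAT, the glucose list of 0.07 and 0, the FOXO and CREB list of -0.07 and 0.17, and the cholesterol list of 0.15 and -0.16. *Angptl8* was at 9.52 CPM in GRf/f and 16.3 CPM in GRmKO gWAT (0.75), and *Fasn* differed by -0.78 there. The sources used here do not state if liver, muscle and fat were taken from the same animals.

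PPAR-alpha targets were mostly within 1.5-fold. Of 34 tested members, 4 were higher and 0 lower, and the median was 0.04. Those higher were *Acot3* at 3.24 and 10.02 CPM (1.49) and *Acot4* at 23.7 and 49.4 CPM (1.04), which split acyl-CoA in peroxisomes, *Cyp4a14* and *Pdk4*. *Cyp4a14*, a fatty acid hydroxylase, stood at 131 and 253 CPM (0.95). *Pdk4*, which blocks pyruvate dehydrogenase, stood at 0.96 and 2.04 CPM (0.80, interval 0.29 to 1.93). *Acot3*, *Acot4* and *Cyp4a14* have close relatives in the genome, so that reads may be divided among them in uncertain shares. *Cpt1a*, the gate of fatty acids into mitochondria, stood at 321 and 273 CPM (-0.24). *Fgf21*, a fasting hormone of the liver, was represented by 2 counts in GRf/f and 4 in GRmKO liver (0.10 and 0.19 CPM, interval of the log2 ratio -1.79 to 4.48), at or near the floor in both. No difference could be detected at this depth.

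Chaperones and amino acid genes were mostly within 1.5-fold. Of 20 endoplasmic reticulum chaperones and their regulators, 1 was higher and 1 lower, with a median of 0.16. *Creld2* stood at 21.5 and 43.2 CPM (0.99) and *Derl3*, a component of protein export from the endoplasmic reticulum, at 1.91 and 0.95 CPM (-0.73, interval -1.84 to -0.17). Of 19 genes of the ATF4 response to amino acid shortage, 1 was higher and 2 lower, with a median of 0.03. *Ddit3*, the transcription factor CHOP, stood at 2.66 and 6.65 CPM (1.18), *Chac1*, which degrades glutathione, at 3.49 and 2.03 CPM (-0.65), and *Gdf15*, a secreted stress factor, at 9.85 and 6.22 CPM (-0.62). Of 38 genes of amino acid breakdown and the urea cycle, 1 was higher and 0 lower, with a median of 0.10. It was *Mat1a*, which makes S-adenosylmethionine, at 1223 and 1875 CPM (0.62).

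**Figure D4:**
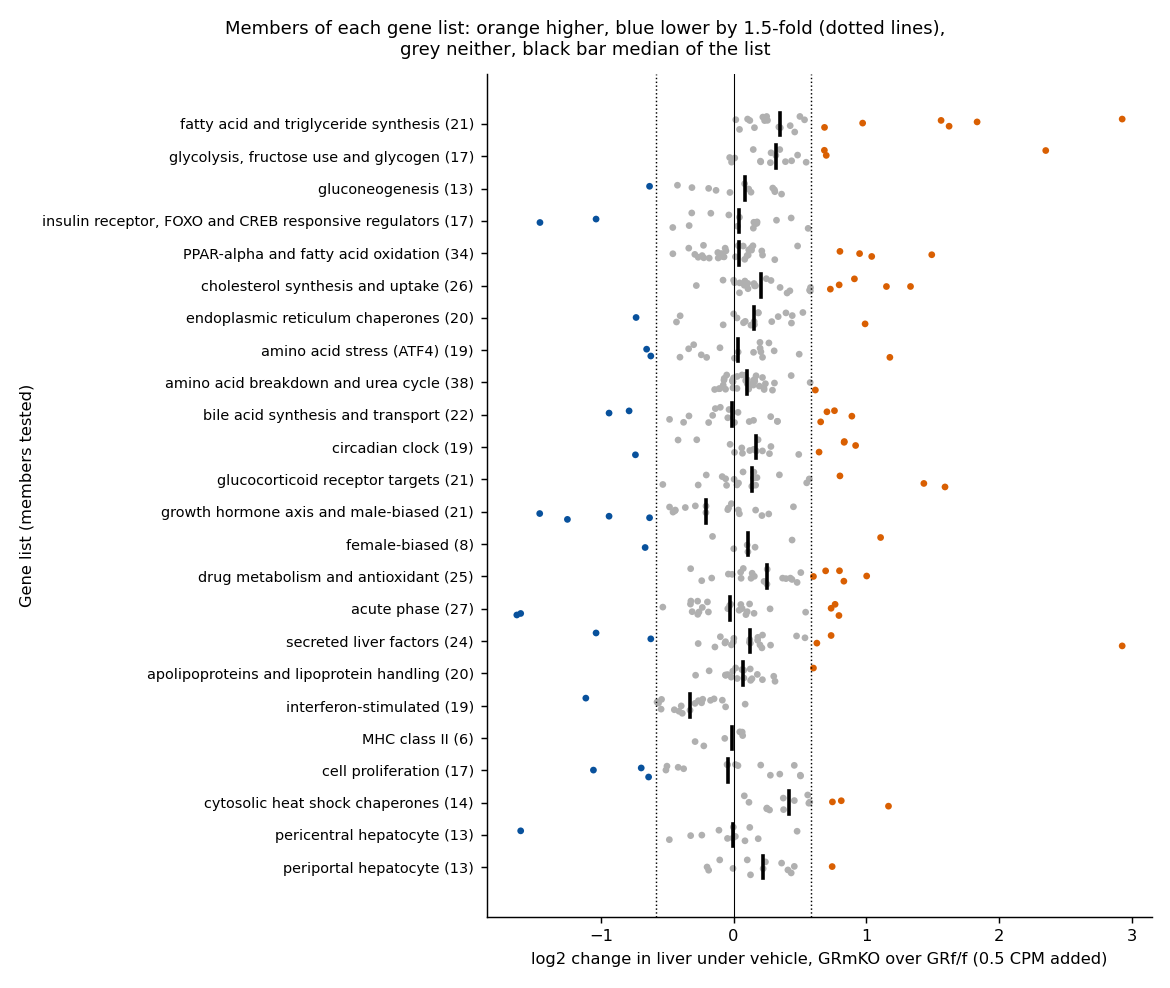
Every tested member of the 24 gene lists is drawn at its log2 difference in vehicle-treated liver, GRmKO over GRf/f, 1 row per list, orange where higher and blue where lower by 1.5-fold and grey otherwise, with a black bar at the median of the list. The medians of the fatty acid (0.35), glucose (0.32) and cytosolic heat shock (0.42) lists lie furthest to the right, and that of the interferon-stimulated list (-0.33) furthest to the left.

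Bile acid genes passed 1.5-fold in both directions. Of 22 tested members, 4 were higher and 2 lower, with a median of -0.01. *Cyp8b1*, the sterol 12-alpha-hydroxylase that makes cholic acid, stood at 220.2 CPM in GRf/f and 127 CPM in GRmKO liver, a difference of -0.79 (-0.86 to -0.72), and was also lower under CORT (-1.15). *Cyp7b1*, of the alternative pathway, stood at 514 and 268 CPM, a difference of -0.94 (-0.99 to -0.89). *Cyp7a1*, the rate-limiting enzyme of the classic pathway, stood at 121 and 152 CPM, a difference of 0.33 (0.26 to 0.41), under 1.5-fold. Those higher were *Slco1a4*, an organic anion carrier, at 16.8 and 31.7 CPM (0.89), *Nr0b2*, the repressor SHP, at 23.2 and 39.7 CPM (0.76), *Akr1d1*, the steroid 5-beta-reductase, at 110.1 and 180 CPM (0.70), and *Abcg5*, a subunit of the sterol exporter to bile, at 92.3 and 146 CPM (0.66). *Nr0b2* and *Abcg5* were also higher under CORT, by 1.58 and 0.81.

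Clock genes bear on the hour at which livers were taken, which was not given. Of 19 tested members, 4 were higher and 1 lower, with a median of 0.17. *Bhlhe40*, a clock repressor that also responds to insulin, stood at 99.9 and 190 CPM (0.92), *Cry1* at 6.12 and 11.3 CPM (0.83) and *Per2* at 15.2 and 27.4 CPM (0.83), both repressors of the core loop, and *Nfil3*, a repressor of D-box genes, at 10.5 and 16.7 CPM (0.64). *Dbp*, the activator of D-box genes, stood at 124 CPM in GRf/f and 74.1 CPM in GRmKO liver, a difference of -0.74 (-0.84 to -0.65). In the CORT-treated libraries *Dbp* was at 2.97 and 31.6 CPM, a difference of 3.21. Feeding also shifts several of these genes, and the part of the hour or of feeding in the differences above was not tested.

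Targets of GR itself were mostly within 1.5-fold. Of 21 tested members, 3 were higher and 0 lower, with a median of 0.14. *Cdkn1a*, the cell cycle inhibitor p21, stood at 1.12 and 4.38 CPM (1.59), *Zbtb16*, a zinc finger factor, at 7.04 and 19.9 CPM (1.43), and *Pdk4* as above. *Fkbp5*, a co-chaperone of GR and a standard readout of its activity, stood at 47.7 CPM in GRf/f and 70.2 CPM in GRmKO liver, a difference of 0.55 (0.44 to 0.67), and *Tsc22d3*, the gene of GILZ, at 84.1 and 107.0 CPM, a difference of 0.35 (0.26 to 0.44), both under 1.5-fold. *Nr3c2*, the mineralocorticoid receptor, stood at 5.04 and 7.51 CPM, a difference of 0.53 (0.20 to 0.94).

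Male-biased genes under growth hormone control lay mostly below 0. Of 21 tested members, 0 were higher and 4 lower, 6 lay above 0 and the median was -0.21. *Selenbp2*, a selenium-binding protein (chromosome 3, 94693556 to 94704413), stood at 1355 CPM (1339 to 1370.4) in GRf/f and 492 CPM (482 to 502) in GRmKO liver, a difference of -1.46 (-1.49 to -1.43), and was lower under CORT too (-3.07). *Hsd3b5*, a male-specific steroid reductase (chromosome 3, 98618634 to 98630252), stood at 309 CPM (302 to 317) and 129.5 CPM (125 to 134), a difference of -1.25 (-1.32 to -1.19). *Cyp4a12b*, a male-specific fatty acid hydroxylase, stood at 354 and 228 CPM (-0.63), and *Cyp7b1* is given above. *Igf1*, the main endocrine target of growth hormone, stood at 295 and 342 CPM, a difference of 0.21 (0.16 to 0.26). *Selenbp2*, *Hsd3b5* and *Cyp4a12b* have near-identical neighbours, so their shares of reads are uncertain. Of 8 tested female-biased genes 1 was higher, *Cyp17a1* at 1.53 and 3.87 CPM (1.11), and 1 lower, *Cyp2a4* at 0.80 and 0.32 CPM (-0.67, interval -2.78 to 0.08), with a median of 0.11.

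Among acute phase genes, 3 of 27 were higher and 2 lower, with a median of -0.03. *Saa1*, a serum amyloid A protein, stood at 82.2 CPM in GRf/f and 26.2 CPM in GRmKO liver, a difference of -1.63 (-1.79 to -1.51), and its near-identical neighbour *Saa2* at 9.20 and 2.69 CPM (-1.60). *Apcs*, serum amyloid P, stood at 33.5 and 58.5 CPM (0.79), *Serpina3m*, a protease inhibitor of a cluster of close copies, at 129 and 220.4 CPM (0.77), and *Hamp*, the iron hormone hepcidin, at 534 and 890 CPM (0.74). Of 24 secreted liver factors 3 were higher, *Angptl8*, *Hamp* and *Tsku* (117 and 181 CPM, 0.63), and 2 lower, *Igfbp1* and *Gdf15*, with a median of 0.12. Of 20 apolipoprotein and lipoprotein genes 1 was higher, *Apob* at 1263 and 1918 CPM (0.60), and 0 lower, with a median of 0.07. *Apob* was under 1.5-fold with TMM (0.58) or median-of-ratios scaling (0.57), so that 0 were then higher. Of 13 pericentral hepatocyte genes 0 were higher and 1 lower, the ammonium transporter *Rhbg* at 10.3 and 3.04 CPM (-1.60), with a median of -0.01, and of 13 periportal genes 1 was higher, the protease *Ctsc* at 31.9 and 53.8 CPM (0.74), and 0 lower, with a median of 0.22.

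Markers of other cells of the liver also differed between the libraries. In bulk RNA fewer cells of a type and less RNA per cell cannot be told apart. The 10 Kupffer cell and macrophage markers summed to 261 CPM in GRf/f and 204 CPM in GRmKO liver, with 1 of 10 lower, *Csf1r* at 29.4 and 17.1 CPM (-0.76), and a median of -0.35. The 5 erythroid markers summed to 1020.0 and 663 CPM, with 4 of 5 lower, the globins *Hba-a1*, *Hba-a2*, *Hbb-bs* and *Hbb-bt*, at -0.60 to -0.71. The 4 tested cholangiocyte markers were low, with a sum of 4.30 and 9.79 CPM over the list, and *Sox9* (1.17), *Krt19* (0.83) and *Krt7* (0.61, interval -0.01 to 1.83) were higher. Of 6 endothelial markers *Pecam1* was higher at 2.42 and 5.84 CPM (1.12), and of 6 stellate cell and fibroblast markers *Col1a1* was lower at 6.69 and 4.27 CPM (-0.59). Of the 7 B and plasma cell markers 4 were tested and *Jchain* was higher at 0.48 and 1.11 CPM (0.72). Neutrophil, T and NK cell, adipocyte, pancreatic acinar and mesothelial markers summed to under 5 CPM in each library, with *Adrb3* (0.93) higher and *Cfd* (-0.79, 12 and 3 counts) lower of the adipocyte markers. Of the 7 neutrophil markers 3 were at 0 in GRf/f and 6 in GRmKO liver. Skeletal muscle markers summed to 0.72 and 0.05 CPM, with 4 and 7 of 8 at 0. The part of cell makeup in the differences above was not tested.

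The 10 largest differences in each direction among genes with a mean of at least 5 CPM in the 2 libraries were taken whatever the list. Those above 0 were *Angptl8*, *Ppp1r3b*, *Mid1ip1*, *Thrsp* and *Fasn*, described above, and *Cryz*, *Nr1h2*, *Osbpl11*, *Ppp2r2d* and *Slc5a6*. *Cryz*, a quinone reductase, stood at 12.5 CPM (11.1 to 14.2) in GRf/f and 59.3 CPM (56.0 to 62.7) in GRmKO liver, a difference of 2.20 (2.04 to 2.44), and differed by 1.87 under CORT. In vehicle-treated gastrocnemius *Cryz* was at 0 CPM in GRf/f and 11.7 CPM in GRmKO mice. *Nr1h2*, the nuclear receptor LXR-beta, stood at 3.94 and 15.9 CPM (1.88), *Osbpl11*, an oxysterol-binding protein relative, at 3.26 and 12.1 CPM (1.75), *Ppp2r2d*, a phosphatase subunit, at 6.40 and 21.0 CPM (1.64), and *Slc5a6*, a carrier of biotin and pantothenate, at 2.31 and 7.82 CPM (1.57). *Slc5a6* also differed by 1.52 under CORT, and was at 0 CPM in GRf/f and 4.06 CPM in GRmKO gastrocnemius.

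The 10 below 0 had roles of several kinds. *Stx16*, a Golgi syntaxin, stood at 12.7 and 0.74 CPM (-3.41), and *Zc3h11a*, an RNA export factor, at 46.4 and 6.66 CPM (-2.71). *Mup8*, a major urinary protein of a cluster of near-identical copies, stood at 40.2 and 7.47 CPM (-2.35), *Wdfy1*, an endosomal protein, at 25.1 and 4.58 CPM (-2.33), and *Cyp2c40*, of another such cluster, at 45.7 and 9.49 CPM (-2.21). *Myh14*, a non-muscle myosin, stood at 12.4 and 2.62 CPM (-2.05), *Srrt*, an RNA-binding protein, at 9.63 and 2.10 CPM (-1.96), *Zfp180*, a zinc finger protein, at 9.61 and 2.29 CPM (-1.86), *Tdrd7*, a Tudor domain protein, at 17.6 and 4.69 CPM (-1.81), and *Miga1*, a mitochondrial fusion protein, at 217 and 65.9 CPM (-1.71). *Zc3h11a*, *Miga1* and *Wdfy1* were lower under CORT as well, by -1.99, -1.29 and -0.59. Of the 10 above 0, 8 have 2 or more annotated coding transcripts, and of the 10 below 0, 9 have 2 or more, and if only the listed transcript was counted, a shift of reads between transcripts cannot be told apart from a change of the gene. *Angptl8*, *Thrsp*, *Irs2*, *Igfbp1* and *Insig1* have 1 coding transcript each.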

How the data were processed

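RNA of 3 mice was pooled per group, and 12 libraries were sequenced as 100-base read pairs. Per the labels and the methods of the study, the authors quantified mouse transcripts with Salmon 1.2.1 (mm10) and imported them into R 3.5.0 with tximport, and the deposited values were expected counts, scaled for transcript length. The methods name summarizeToGene, a tximport function for summaries by gene. They also state that, of duplicated gene names, the entry of largest total counts was kept. Each gene name is listed under 1 retained transcript, and whether reads of its other transcripts were added to it was not settled from the values. Gene positions came from a GENCODE annotation of the same build, in which all transcripts were found (unmatched, 0). Promoters came from RefSeq (GRCm38.p6).

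CPM were computed from the library total with Python 3.11.15, pandas 2.3.3 and scipy 1.17.1. Genes above 0 in all 4 liver libraries were compared as the log2 ratio with 0.5 CPM added, and 1.5-fold was the size rule. No p-value was computed, since each group had 1 library. The authors' own calling on simulated replicates was not used. The intervals cover counting error only. The calculation was tested on simulated data. Scaling factors of edgeR 4.0.16 (TMM) and DESeq2 1.42.0 (median of ratios), in R 4.3.3, other pseudocounts, filters and folds were the alternatives.

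The genes named were the 10 largest differences each way among genes with a mean of at least 5 CPM in the vehicle livers, the members of each list past 1.5-fold, up to 4 each way, and a fixed set of regulators. Others are said to have been chosen after their values were seen, except *Pklr* and *Alb*, which are also outside this rule. Some genes that this rule names are not reported here, although the counts of their lists include them. The members and lists were chosen with earlier results of these data known.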

Additional observations from a re-analysis of the deposited data

Results flagged for a closer look

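Of 106 named genes or markers, 27 passed 1.5-fold between genotypes one way in vehicle-treated liver and the other way in CORT-treated liver. Most of the 106 were named because they passed 1.5-fold under vehicle. Over all genes of at least 5 CPM, 58 of the 296 higher under vehicle were lower under CORT (19.6%). Of the 215 lower under vehicle, 33 were higher under CORT (15.3%). Values below are GRmKO over GRf/f on the log2 scale. With 1 library a group the change of the difference was not tested.

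Among genes of feeding and stress, *Thrsp* was at 1.62 under vehicle and -1.03 under CORT, *Irs2* at -1.46 and 0.593, *Igfbp1* at -1.04 and 1.69, and *Slc25a25* at -0.633 and 1.56. *Creld2* was at 0.991 and -1.06, *Ddit3* at 1.18 and -0.977, and *Gdf15* at -0.623 and 1.26. The cytosolic chaperones *Hspa1b* and *Hspa1a* were at 1.17 and 0.745 under vehicle and -1.5 and -1.0 under CORT.

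Of the clock genes, *Cry1* was at 0.835 and -0.92 and *Dbp* at -0.739 and 3.21. *Cdkn1a* was at 1.59 and -1.96. Of steroid and drug metabolism genes, *Hsd3b5* was at -1.25 and 0.601, *Cyp2a4* at -0.666 and 3.70, *Cyp2b10* at 0.798 and -1.27, and *Cyp3a11* at 0.694 and -0.606. The counting interval of *Cyp2a4* under vehicle, -2.78 to 0.08, includes 0.

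The interferon-stimulated *Oasl2* was at -1.11 and 0.643. The proliferation genes *Birc5* and *Mki67* were at -1.06 and -0.696 under vehicle and 0.592 and 0.61 under CORT. Their counting intervals under CORT, -0.08 to 2.77 and -0.19 to 2.70, include 0. Among the largest differences, *Stx16* was at -3.41 and 0.798 and *Tdrd7* at -1.81 and 1.16. Of cell markers, *Sox9* was at 1.17 and -0.69 and *Adrb3* at 0.926 and -0.824. The globins *Hbb-bt*, *Hba-a2*, *Hbb-bs* and *Hba-a1* were at -0.708, -0.674, -0.628 and -0.601 under vehicle and 1.38, 1.51, 1.54 and 1.49 under CORT.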

How the results depend on the processing

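The numbers of genes past 1.5-fold were 722 higher and 516 lower, and they depended on how low values were treated. With 0.1 CPM added they were 1103 and 842, with 2 CPM added 322 and 238, and among genes with a mean of at least 5 CPM 296 and 215. With genes above 0 in either vehicle library 838 were lower, and 54.4% of all calls were higher, beside 58.3% in the main setting. Past 2-fold 157 were higher and 130 lower. Among genes with 1 coding transcript, an alternative chosen after seeing the data that leaves 3037 genes, 147 were higher and 77 lower. Fewer genes enter under the filters of level and of 1 coding transcript. More enter, 15429 against 12485, with genes above 0 in either vehicle library. Low values weigh less with a larger addition. TMM and median-of-ratios scaling each changed 3 list counts by over 1.5 times, lower interferon-stimulated genes from 1 to 3 and higher apolipoprotein genes and hepatocyte markers from 1 to 0. They shifted the median of genes of at least 5 CPM from 0.0273 to 0.00491 and -0.000622.

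Among lists, 0.1 CPM gave 1 higher FOXO and CREB gene and 2 higher ATF4 genes, and 2 CPM gave 0 lower chaperone and 0 lower ATF4 genes. A mean of at least 5 CPM gave 0 lower chaperone and 1 lower ATF4 gene. The filter of 1 coding transcript left few members of each list. Higher were 2 of 3 fatty acid, 0 of 2 glucose, 1 of 12 PPAR-alpha, 2 of 6 cholesterol, 0 of 6 ATF4 and 0 of 11 amino acid genes. Lower were 0 of 2 gluconeogenesis, 0 of 7 chaperone and 1 of 6 ATF4 genes. Of 388 alternative list counts 333 stayed within 1.5 times and 55 did not. Of 424 alternative values of named genes 411 stayed within their counting interval and 13 moved, and no value reversed. No library could be left out, since each side had only 1. No paired analysis was possible because each group had 1 library and the labels give no replicate numbers. A pool of 3 mice per group gives no spread between mice, which limits every difference above whatever its depth.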

Other observations

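Genes of drug metabolism and antioxidant defence lay mostly above 0 in vehicle-treated GRmKO liver, with 5 of 25 higher, 0 lower and a median of 0.25. *Gsta2*, a glutathione transferase, stood at 48.6 CPM in GRf/f and 97.8 CPM in GRmKO liver (1.00), *Nqo1*, a quinone reductase, at 3.15 and 6.00 CPM (0.83), *Cyp2b10* at 3.30 and 6.10 CPM (0.80) and *Cyp3a11* at 1507 and 2438 CPM (0.69), both cytochromes of drug oxidation. *Sult1d1*, a sulfotransferase named after its value was seen, stood at 94.7 and 144 CPM (0.60). All 14 cytosolic heat shock chaperones lay above 0 under each of the 3 scalings, with 3 higher, 0 lower and a median of 0.42. *Hspa1b* stood at 19.2 and 43.8 CPM (1.17), *Hspb1* at 19.9 and 35.3 CPM (0.81) and *Hspa1a* at 2.07 and 3.80 CPM (0.75), and the neighbours *Hspa1a* and *Hspa1b* are near-identical, so their shares of reads are uncertain.

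Of 19 interferon-stimulated genes 0 were higher and 1 lower, *Oasl2* at 3.11 and 1.17 CPM (-1.11), 18 lay below 0 and the median was -0.33. With TMM or median-of-ratios scaling 3 were lower. Of the 10 macrophage markers 9 lay below 0, with 1 lower and a median of -0.35, and their part in this was not tested. Of 6 MHC class II genes 0 were higher and 0 lower, with a median of -0.01. Of 17 proliferation genes 0 were higher and 3 lower, *Birc5* at 0.91 and 0.18 CPM (-1.06), *Mki67* at 0.86 and 0.34 CPM (-0.70) and *Cdc20* at 0.43 and 0.10 CPM (-0.64), with a median of -0.04. These calls rest on 4, 7 and 2 counts in GRmKO liver, the last under the floor of 3 counts, and the interval of *Cdc20* (-5.40 to 0.12) includes 0.

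Major urinary proteins, chosen after their values were seen, are abundant male-biased liver products. Of 22 tested *Mup* genes 0 were higher and 7 lower, with a median of -0.39, and their summed level was 130817 CPM in GRf/f and 102811 CPM in GRmKO liver. Under CORT the sums were 56041 and 43354 CPM. Single members are near-identical copies, so their separate values are uncertain.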
